A study of Homo sapiens with 62 samples.

Results

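The unfolded protein response is the set of genes that a cell uses to fold, inspect and discard proteins in the endoplasmic reticulum (ER). The expression of 34 of these genes was followed through a series of human cell lines from which 1 extra copy of a chromosome arm had been removed. The members were taken by gene name, from a list drawn up with earlier results of these data known. All 34 were found in every count table: 34 of 58735 listed genes in the tables of A2058, AGS, HCT116 and MCF10A, and 34 of 48162 in those of A2780. ATF6 and EDEM3 lie on 1q, 1 of the removed arms, and DERL1 lies on 8q. The comparisons asked whether the members on a lost arm fell with it, and what the members on other chromosomes did in the same clones.

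Messenger RNA was sequenced in 62 libraries from 5 lines, in 16 groups. A2058, a melanoma line that gained 1q, 7p and 8q, gave 4 wild-type (WT) libraries, 4 libraries of 2 1q-loss clones, 6 libraries of 3 7p-loss clones and 4 libraries of 2 8q-loss clones, all made by ReDACT-CO. HCT116, a colorectal cancer line with an 8q gain, gave 2 WT libraries and 4 libraries of 2 8q-loss clones (ReDACT-CO). AGS, a gastric cancer line with a 1q gain, gave 1 WT library, 2 libraries of clones that carry a TK+ integrant and keep the gain, and 5 libraries of 5 1q-loss clones, of which clone 11 was made by ReDACT-CO and clones 1, 4, 6 and 7 by ReDACT-NS. A2780, an ovarian cancer line with a 1q gain, gave 2 WT libraries, 2 TK+ libraries and 6 libraries of 3 1q-loss clones (ReDACT-NS). MCF10A, a non-cancerous breast epithelial line, gave 2 WT libraries and 8 libraries of 4 1q-loss clones, and the same numbers again with cells that express the oncogene hRASV12 (hRas WT and hRas 1q-loss). MCF10A clones 1 to 3 were made by ReDACT-TR and clone 4 by ReDACT-CO. ReDACT is a set of genome-engineering methods for deleting a whole extra chromosome arm. Each loss clone grew from a single cell, so libraries of 1 clone are not independent, and a clone carries whatever else changed in its founder. Only the MCF10A labels call the repeat libraries biological replicates. For the other lines nothing says whether the repeat libraries of WT cells, of TK+ cells or of 1 clone came from separate cultures. The spread between those repeats, which enters the p-values together with the spread between clones, may be technical. In AGS no clone has a repeat library.

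Background on the pathway helps to place the members. The ER membrane holds the sensors ATF6, IRE1 (encoded by ERN1) and PERK (encoded by EIF2AK3). Unfolded protein sends ATF6 to the Golgi, where it is cut into a transcription factor. It also makes IRE1 splice XBP1 mRNA into the message for an active factor, and makes PERK slow translation while favouring ATF4. ATF6 and XBP1 raise ER chaperones and the machinery of ER-associated degradation, and ATF4 drives the integrated stress response, with DDIT3 (CHOP), TRIB3, CHAC1, ASNS and PPP1R15A among its known targets. Splicing of XBP1, cleavage of ATF6 and phosphorylation cannot be seen in counts per gene.

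Levels are given as CPM (counts of a gene relative to the library total) scaled between libraries of a line by TMM, and changes as log2 fold changes of loss clones over controls of the same line. Depth was 15042068 to 30984036 counts per library. Where groups are said not to overlap, this describes the library values only, and the share of all genes without overlap is not given. Tests are edgeR's quasi-likelihood test with Benjamini-Hochberg adjustment over all genes tested in a comparison, with 0.05 as the threshold on the adjusted p for a call, and "rose" and "fell" are used only of called genes. The lost arm was visible in every comparison as a median log2 change of its genes of -0.37 to -0.57. By their median over a line's libraries, markers of the labelled tissue were at 1 CPM or more for 6 of 6 melanocyte genes in A2058, 6 of 6 basal breast genes in MCF10A, 4 of 6 genes in AGS, 4 of 6 in HCT116, where VIL1 and CDH17 had a median of 0 and at most 0.473 and 0.512 CPM, and 1 of 6 ovarian genes in A2780, where 4 of 4 fibroblast genes were at that level. In bulk RNA, fewer cells of a type and less RNA per cell cannot be told apart. The counting strand is not given, so members that overlap another gene (DNAJB9 with PNPLA8 and THAP5, ATF6B with TNXB, SYVN1 with MRPL49 and FAU, DDIT3 with MARS, CRELD2 with ALG12 and HSP90B1 with C12orf73, among others) may hold some of its reads, and ATF4, ASNS, XBP1 and PDIA3 have pseudogenes.

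In control cells the members spanned a wide range of levels. Divided by gene length, CALR (calreticulin, a calcium-binding lectin chaperone) had the highest mean of the 34 in A2058 WT, at 405 ± 24.4 CPM per kb (SD, n = 4), followed by HSP90B1 (GRP94) at 224 ± 12.7, HSPA5 (BiP, the main ER chaperone of the Hsp70 family) at 220.0 ± 5.26 and CANX (calnexin) at 212 ± 10.7. CALR was also first in A2780, HCT116 and MCF10A, and behind HSPA5 and HSP90B1 in AGS, where HSPA5 was first at 464 ± 117 CPM per kb (SD, n = 3). In AGS HSP90B1 was at 357 ± 184 and CALR at 323 ± 94.3, with overlapping ranges. The sensor ERN1 was scarce, at 1.44 ± 0.109 CPM per kb in A2058 WT, while ATF6 was at 15.2 ± 0.374 on the same scale. DERL3, a derlin of secretory cells, was last in A2780, AGS, HCT116 and MCF10A and was listed at 0 in both MCF10A WT libraries.

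Some promoters of the members carry known response elements. They are shown for the members with such an element that were called in the A2058 1q-loss clones described later, and for ASNS, which was called in AGS and A2780. RefSeq promoter windows (GRCh38.p14, 250 bases before to 50 bases after the gene start) were found for 31 of the 34 members, all but PDIA3, DERL1 and DERL3. The ER stress response element (ERSE, the letters CCAAT and CCACG with 9 bases between them) and its shorter relative ERSE-II (ATTGG and CCACG with 1 base between them), both searched on both strands, are bound by ATF6 or XBP1 with NF-Y. ERSE was present in 7 members (CALR, CANX, CRELD2, HSP90B1, HSPA5, PDIA6 and XBP1) and in 0.0769% of all 35116 promoters, and ERSE-II in 3 members (HERPUD1, HYOU1 and SDF2L1) and 0.0541% of all promoters. The CARE element bound by ATF4 (TGATGNAA) was present in ASNS, CHAC1 and HERPUD1 and in 3.62% of all promoters. No member has overlapping matches of different motifs, and a match is a description of letters only. Below, the element is in capitals with 20 flanking bases on each side, written 5′ to 3′ on the gene's strand. The HSPA5 window lies at chr9:125241371-125241429 (-), HSP90B1 at chr12:103930196-103930254 (+) and chr12:103930301-103930359 (+), XBP1 at chr22:28800583-28800641 (-), HYOU1 (the nearer to the gene start of its 2 matches) at chr11:119057254-119057304 (-), CRELD2 at chr22:49918534-49918592 (+), SDF2L1 at chr22:21642094-21642144 (+) and ASNS at chr7:97872449-97872496 (-). In the second HSP90B1 site, HYOU1, CRELD2 and SDF2L1 the element reads as its reverse complement.
HSPA5: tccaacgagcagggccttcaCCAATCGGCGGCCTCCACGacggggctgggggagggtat
HSP90B1 site 1: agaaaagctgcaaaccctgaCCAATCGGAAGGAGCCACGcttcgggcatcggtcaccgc
HSP90B1 site 2: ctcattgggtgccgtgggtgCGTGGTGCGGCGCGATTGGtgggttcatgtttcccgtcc
XBP1: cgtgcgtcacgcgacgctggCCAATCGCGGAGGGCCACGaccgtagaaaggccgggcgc
HYOU1: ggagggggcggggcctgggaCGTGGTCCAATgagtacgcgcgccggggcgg
CRELD2: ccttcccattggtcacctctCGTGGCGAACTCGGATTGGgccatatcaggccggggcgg
SDF2L1: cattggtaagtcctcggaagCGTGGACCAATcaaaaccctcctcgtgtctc
ASNS: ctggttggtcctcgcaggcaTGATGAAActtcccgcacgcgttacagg

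ATF6 and EDEM3 were the members that 1q loss could lower directly. Both fell in the AGS, A2780 and MCF10A clones, neither fell in the A2058 clones, and in the hRas-expressing MCF10A clones neither was called. ATF6 (GRCh38 chromosome 1, 161766294 to 161964070, plus strand) encodes the sensor that becomes a transcription factor. EDEM3 (GRCh38 chromosome 1, 184690231 to 184754913, minus strand) encodes a mannosidase-like protein that marks misfolded glycoproteins for degradation. The values of both genes in each library are in the plot of ATF6 and EDEM3 CPM by group.

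**Figure D1:**
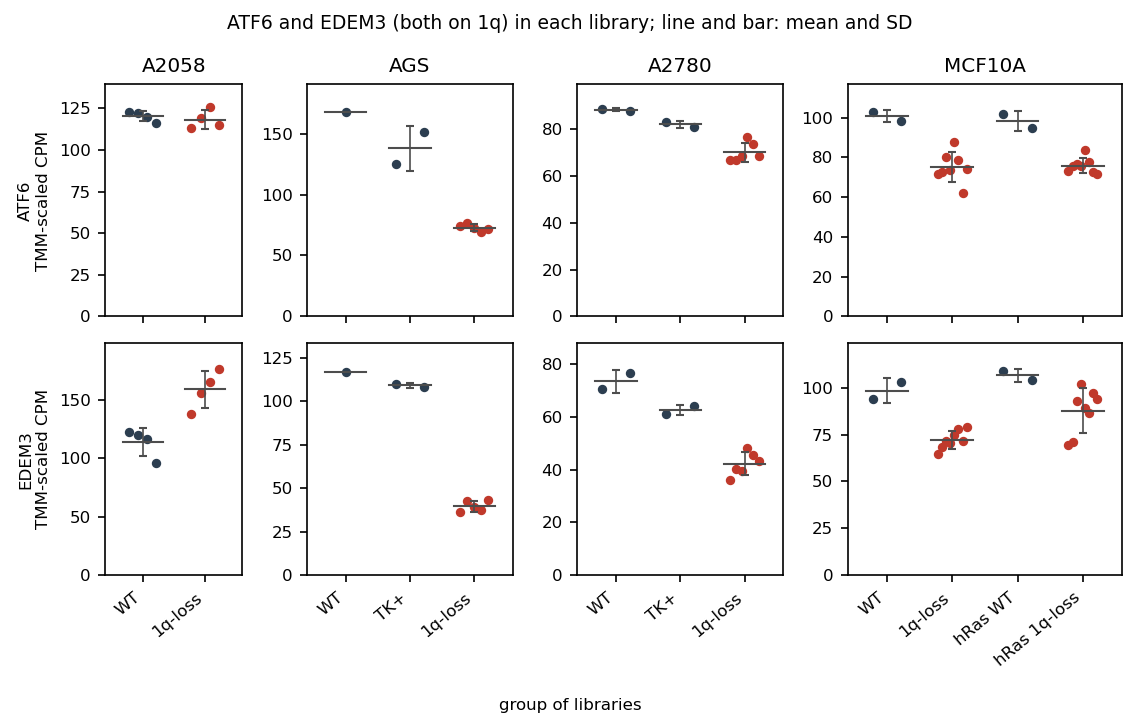
TMM-scaled CPM (y axis) of ATF6 (top) and EDEM3 (bottom) in each library of A2058, AGS, A2780 and MCF10A by group (x axis), with controls in dark blue, 1q-loss libraries in red, and the group mean and SD as a line and bar. In A2058 the range of the ATF6 1q-loss points overlaps that of the WT points, and the 1q-loss points of EDEM3 lie above WT. In AGS and A2780 all 1q-loss points of both genes lie below the controls.

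Of the 5 1q-loss comparisons, AGS gave the lowest value of each gene. ATF6 stood at 168 CPM in the WT library, 125 and 151 in the TK+ libraries, and 74, 72.4, 69, 71.6 and 77 in 1q-loss clones 1, 4, 6, 7 and 11. The groups did not overlap, the log2 fold change was -1.02 (SE 0.106, adjusted p = 0.00351), and 12.6% of the 659 tested genes of 1q had a lower change. EDEM3 stood at 117 CPM in the WT library, 110 and 108 in the TK+ libraries, and 36.2, 39.1, 37.3, 43.1 and 42.7 in clones 1, 4, 6, 7 and 11. Its change was -1.49 (SE 0.095, adjusted p = 0.000314), and 3.79% of 1q genes had a lower one. The median over 1q genes in AGS was -0.54, so both genes fell by more than the arm's median. Within 2 Mb on each side, 7 of 48 tested neighbours of ATF6 and 2 of 21 of EDEM3 had a lower change than the gene itself, and the neighbours' medians were -0.58 and -0.51. Both calls were kept in all 12 alternative settings.

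In A2780 both genes fell with the arm. ATF6 had 88.9 and 88 CPM in WT libraries, 83.3 and 81.2 in TK+ libraries, and 66.8, 68.5 and 77 as the lowest, median and highest of the 6 1q-loss libraries. Its change was -0.28 (SE 0.058, adjusted p = 0.0112), smaller than that of 69.7% of the 647 tested 1q genes. EDEM3 had 70.3 and 76.4 CPM in WT, 61.1 and 64 in TK+, and 36.2, 41.8 and 48.2 as the lowest, median and highest of the 1q-loss libraries. Its change was -0.69 (SE 0.092, adjusted p = 0.00107), and 16.4% of 1q genes had a lower one. The groups did not overlap for either gene, and the arm's median was -0.45. The A2780 tables list positions in GRCh37, whereas the submitters' processing notes name hg38.

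In MCF10A the falls were close to the arm's median of -0.50. ATF6 had 103 and 98.5 CPM in the WT libraries and 62.2, 73.9 and 87.5 as the lowest, median and highest of the 8 1q-loss libraries, a change of -0.43 (SE 0.101, adjusted p = 0.0472). EDEM3 had 93.7 and 103 CPM in WT and 64.7, 71.5 and 78.8 in the 1q-loss libraries, a change of -0.44 (SE 0.086, adjusted p = 0.0139). The groups did not overlap for either gene. The ATF6 call was lost in 13 of 20 alternatives, including each fit without a WT library (adjusted p = 0.561 without replicate 1 and 0.319 without replicate 2). EDEM3 lost its call in the same 2 fits (0.127 and 0.356) and without clone 2, where the adjusted p was just above the threshold.

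With hRASV12, ATF6 was again lower without overlap but was not called. It had 102 and 94.8 CPM in hRas WT and 71.7, 75.7 and 83.9 as the lowest, median and highest of the 8 hRas 1q-loss libraries, a value of -0.37 (SE 0.078, adjusted p = 0.0924). DESeq2 called it at -0.37 (adjusted p = 0.00807), as the 1 member among 361 of 14854 genes called. EDEM3 had 109 and 104 CPM in hRas WT and 69.3, 91.1 and 102 in hRas 1q-loss, a value of -0.28 (SE 0.144, adjusted p = 0.401). The lowest EDEM3 values, 69.3 and 70.8, were those of clone 1. The arm's median was -0.37 there, and 3.47% of 1q genes were called lower, against 34.6% in MCF10A without hRas.

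In A2058 neither gene was called lower. ATF6 had 123, 122, 120 and 116 CPM in the WT libraries, 113 and 119 in 1q-loss clone 1, and 126 and 115 in clone 2, and the groups overlapped. Its value was -0.027 (SE 0.057, adjusted p = 0.724), above that of 78.7% of the 677 tested 1q genes, whose median was -0.46. EDEM3 rose: it had 122, 120, 116 and 96.3 CPM in WT, and 138, 156, 165 and 176 in the 1q-loss libraries, all above the controls. The change was 0.48 (SE 0.096, adjusted p = 0.00184), above that of 90.8% of 1q genes. Of the 51 tested genes within 2 Mb of ATF6, 32 fell and 8 rose, with a median of -0.45. Of the 23 within 2 Mb of EDEM3, 11 fell and 2 rose, with a median of -0.16. Over the whole arm 59.7% of tested 1q genes were called lower in A2058.

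The 1q-loss effect itself was tested between A2058, AGS and MCF10A in 1 model over 19717 genes, where 23.3% of genes were called between A2058 and AGS, 15.1% between A2058 and MCF10A, and 4.13% between MCF10A and AGS. The log2 change of ATF6 in A2058 was higher, that is less negative, than in AGS by 0.97 and than in MCF10A by 0.40, and that in MCF10A was higher than in AGS by 0.57, all called. For EDEM3 the same differences were 1.94, 0.92 and 1.02, all called. This model was added after the data had been seen. It took each library as a unit, repeat libraries of 1 clone included, and no fit with clones summed was run for it.

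ATF6B, the paralog of ATF6 on chromosome 6, was not on a lost arm and was not called in any of the 8 loss comparisons. With 1q loss its values were -0.06 (adjusted p = 0.608) in A2058, -0.45 (adjusted p = 0.0874) in AGS, -0.033 (adjusted p = 0.865) in A2780, 0.068 (adjusted p = 0.852) in MCF10A and 0.11 (adjusted p = 0.622) with hRas. Without the AGS clone 11 library the AGS value was -0.55 with an adjusted p of 0.0234, and without A2058 WT replicate 4 the A2058 value was -0.15 with an adjusted p of 0.0441. In A2058 1q-loss ATF6B was called in 2 of 16 alternatives, and its lowest value over them was -0.175. It was at 0.41 (adjusted p = 0.226) with 7p loss and -0.077 (adjusted p = 0.851) with 8q loss in A2058, and at -0.175 (adjusted p = 1) in HCT116.

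DERL1, a membrane protein of the channel through which misfolded proteins leave the ER, lies on 8q (GRCh38 chromosome 8, 123013164 to 123042423, minus strand). In A2058 it had 97, 94.6, 82.9 and 90.7 CPM in WT and 65.2, 64.9, 53.4 and 66.1 in the 8q-loss libraries, without overlap. It fell by 0.55 on the log2 scale (SE 0.092, adjusted p = 0.0139), close to the arm's median of -0.53, while 38.3% of 8q genes were called lower. The adjusted p was 0.0607 without WT replicate 1, 0.0644 without WT replicate 2 and 0.0836 with the replicate number as a block. In HCT116 DERL1 had 49.4 and 62.5 CPM in WT and 35.4, 43.2, 49.4 and 44.9 in the 8q-loss libraries, whose highest value equals the lower WT value. Its value of -0.37 (SE 0.268, adjusted p = 1) was not called and ranged from -0.53 without WT replicate 1 to -0.185 without WT replicate 2, and no 8q gene was called in HCT116 although the arm's median was -0.57.

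**Figure D2:**
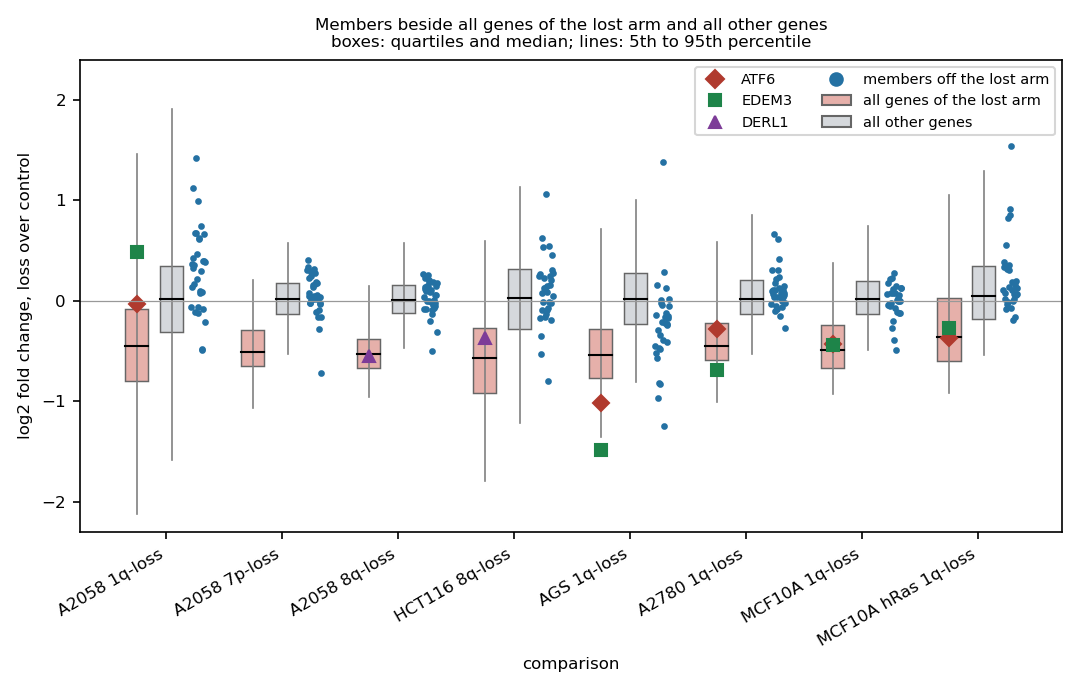
Log2 fold change of loss clones over controls (y axis) in the 8 loss comparisons (x axis), as boxes (quartiles and median) with lines from the 5th to the 95th percentile for all genes of the lost arm (pink) and all other genes (grey), with ATF6, EDEM3 and DERL1 as symbols over the arm's box and the other members as blue points. ATF6 and EDEM3 lie below the arm's median in AGS and above it in A2058, and the blue points shift upward in A2058 1q-loss and downward in AGS.

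Off the lost arm, the members behaved differently in the 5 1q-loss comparisons. In A2058 16 of 32 tested members rose and 2 fell, in AGS 4 of 31 fell and 0 rose, in A2780 3 of 32 rose and 0 fell, and in MCF10A 0 of 31 were called with or without hRas. The median over these members was 0.34 in A2058, -0.23 in AGS, 0.068 in A2780, -0.002 in MCF10A and 0.11 in MCF10A with hRas, against 0.016, 0.02, 0.02, 0.015 and 0.044 over all genes off 1q. The share of all tested genes called was 49.6% in A2058, 7.55% in AGS, 11.8% in A2780, 2.04% in MCF10A and 0.214% with hRas, so the counts of called members have very different backgrounds. In A2058, 26% of genes off 1q were called higher and 22.7% lower.

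**Figure D3:**
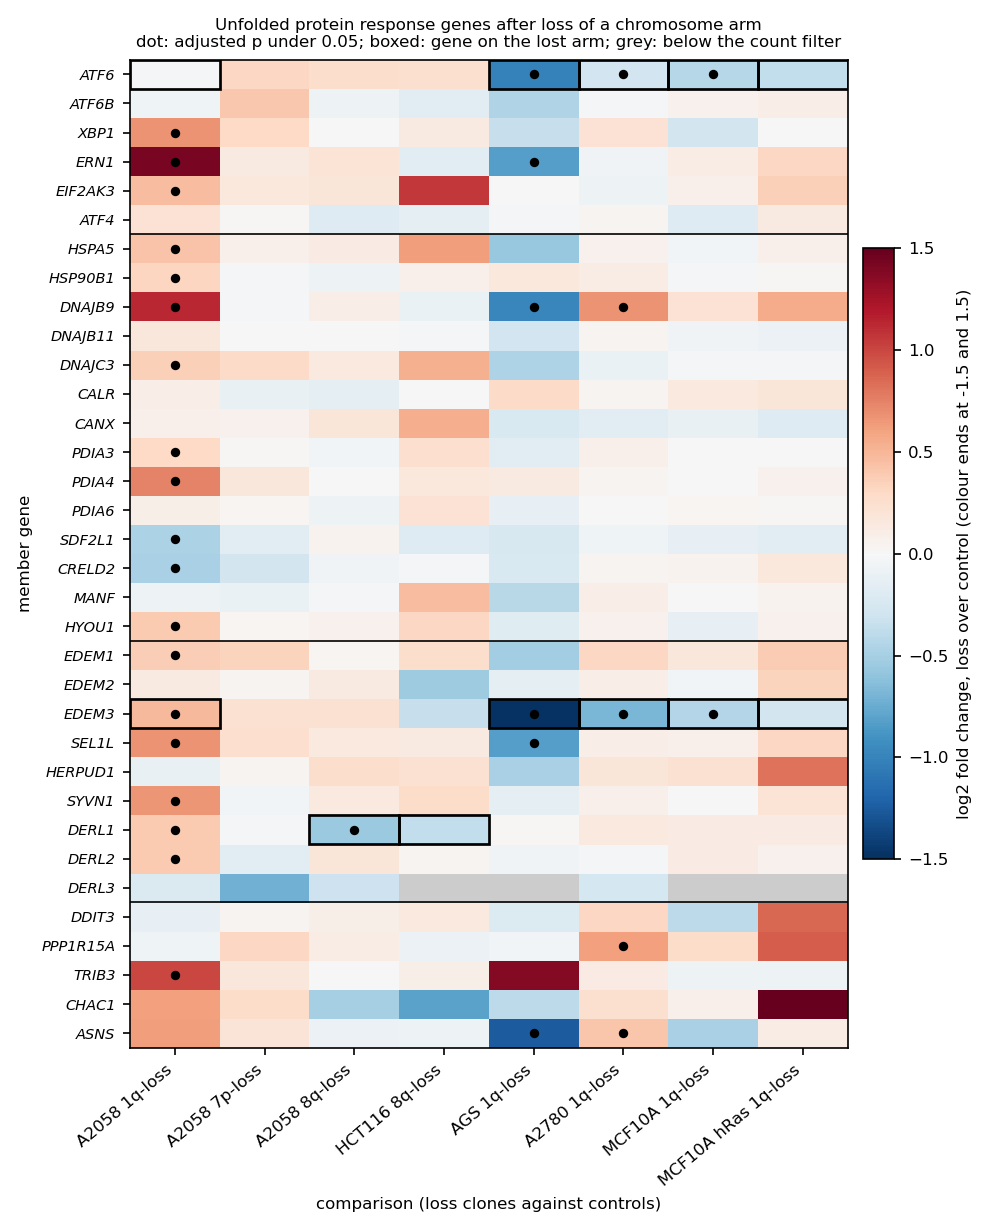
Log2 fold change of each of the 34 members (rows, grouped by role) in the 8 loss comparisons (columns), from blue (lower) through white to red (higher), with dots for an adjusted p under 0.05, boxes for genes on the lost arm and grey for genes below the count filter. The A2058 1q-loss column holds 19 of the dots and is mostly red, the AGS column is mostly blue, and the A2058 7p-loss, HCT116 and MCF10A hRas columns hold no dot.

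In the A2058 1q-loss clones, 3 of 5 tested sensors and factors off 1q rose, where 26% of genes off 1q were called higher. ERN1, which encodes the IRE1 sensor, had 15.1, 15.5, 14.5 and 17.3 CPM in WT, 33.8 and 50.6 in clone 1 and 36.6 and 47.1 in clone 2. All 4 loss libraries lay above all WT libraries, and the change was 1.43 (SE 0.135, adjusted p = 1.2e-05). XBP1 had 88, 102, 105 and 89.6 CPM in WT, 138 and 178 in clone 1 and 130 and 169 in clone 2, a change of 0.67 (SE 0.11, adjusted p = 0.000526). EIF2AK3, which encodes PERK, had 12.5, 13.5, 11.6 and 12 CPM in WT and 15, 17, 18.1 and 18.3 in the loss libraries. It rose by 0.46 (SE 0.104, adjusted p = 0.0039) and missed the threshold in 1 of 16 alternatives (adjusted p = 0.051). ATF4, the factor downstream of PERK, was not called, at 0.22 with overlapping groups.

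Of the 14 tested ER chaperones and folding enzymes in these clones, 7 rose and 2 fell, where 26% of genes off 1q were called higher and 22.7% lower. DNAJB9 (ERdj4, a co-chaperone known as a strong XBP1 target) had 18.4, 22.6, 17.5 and 17 CPM in WT, and 30.8, 44.9, 34.6 and 55.1 in the loss libraries, a change of 1.13 (SE 0.178, adjusted p = 0.000409). PDIA4, a disulfide isomerase, had 450, 486, 499 and 440 CPM in WT and 722, 812, 750 and 866 in the loss libraries, a change of 0.75 (SE 0.074, adjusted p = 1.72e-05). HSPA5 had 859, 857, 837 and 887 CPM in WT and 1052, 1225, 1093 and 1255 in the loss libraries, a change of 0.43 (SE 0.069, adjusted p = 0.000489). None of the 3 genes had overlapping groups. The other members of the group that rose were HYOU1 (0.40), DNAJC3 (0.36), HSP90B1 (0.32) and PDIA3 (0.29). CRELD2 and SDF2L1, small ER proteins usually induced by ER stress, went the other way. CRELD2 had 63.8, 61.6, 64 and 83.6 CPM in WT and 44.1, 48.4, 46.8 and 55.8 in the loss libraries, and it fell by 0.49 (SE 0.11, adjusted p = 0.00396). SDF2L1 had 45.2, 45.4, 50.3 and 60 CPM in WT and 33.9, 41.2, 33.4 and 35.9 in the loss libraries, and it fell by 0.48 (SE 0.106, adjusted p = 0.00352). Neither gene's groups overlapped. CALR, CANX, PDIA6, MANF and DNAJB11 were not called.

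In ER-associated degradation 5 of 8 tested members off 1q rose and 0 fell, against the same 26% and 22.7% of genes off 1q. SEL1L and SYVN1 encode the core of the ubiquitin ligase that takes proteins out of the ER. SEL1L had 99.4, 94, 97.7 and 81.6 CPM in WT and 135, 132, 173 and 154 in the loss libraries, a change of 0.67 (SE 0.099, adjusted p = 0.000251). SYVN1 had 69.8, 67.4, 62.8 and 71.6 CPM in WT and 93.6, 114, 108 and 114 in the loss libraries, a change of 0.66 (SE 0.078, adjusted p = 5.67e-05). DERL1 rose by 0.39, DERL2 by 0.39 and EDEM1 by 0.37, while EDEM2, HERPUD1 and DERL3 were not called.

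Of the 5 genes of integrated stress response output 1 rose in A2058, where 26% of genes off 1q were called higher. TRIB3, a pseudokinase, had 60.4, 57.8, 70 and 62.2 CPM in WT and 124, 138, 105 and 133 in the loss libraries, a change of 1.00 (SE 0.094, adjusted p = 1.17e-05). DDIT3 had 8.01, 8.66, 9.37 and 8.29 CPM in WT and 6.97, 8.17, 8.06 and 8.42 in the loss libraries, a value of -0.12 that was not called. PPP1R15A (GADD34, which restores translation) was at -0.061, CHAC1 at 0.62 and ASNS at 0.62, none of them called. All 16 members that rose off 1q and both that fell had the same direction in both clones, and apart from EIF2AK3 each kept its call in all 16 alternatives. Of the 10 members with an ERSE or ERSE-II in the promoter (shown above for those called), HSPA5, HSP90B1, XBP1 and HYOU1 rose, CRELD2 and SDF2L1 fell, and 4 were not called, with a median of 0.089 over the 10. Of the 19 other members off 1q whose promoter was searched, 10 rose and 0 fell, with a median of 0.39. Of the 3 members without a promoter entry, PDIA3 and DERL1 rose.

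The A2058 1q-loss clones also differed from WT in their melanocyte markers. Over all 6 genes of that list the summed level was 2486 to 4399 CPM in WT, 199 to 255 in 1q-loss clone 1 and 49.5 to 62.2 in clone 2, against 1196 to 4648 in the 7p-loss and 2087 to 3864 in the 8q-loss clones. The part of this change in the members' values was not tested.

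The other arm losses in A2058 gave few or no calls among the same genes. They were set against the same 4 WT libraries, so the 3 A2058 comparisons are not independent. With 7p loss 0 of 34 members were called by edgeR's quasi-likelihood test (0.908% of all genes were called, and 27.8% of 7p genes were called lower), 7 had an unadjusted p under 0.05, as did 13% of all genes, and DESeq2 called 2 members and 448 of 18618 genes. The median over members was 0.044, against 0.018 over all genes off 7p. ATF6 had 123, 122, 120 and 116 CPM in WT and 129, 152 and 161 as the lowest, median and highest of the 6 7p-loss libraries, without overlap, at 0.31 (SE 0.074, adjusted p = 0.0994). EDEM1 was at 0.33 (SE 0.083, adjusted p = 0.114). Without clone 1 both passed, with adjusted p of 0.00612 for ATF6 and 0.0354 for EDEM1, and they were the 2 members of 34 called in a fit that called 5.96% of all genes. In clone 1 the genes of 17p were shifted by -0.50, and DERL2, on 17p, had 41.9 and 39.8 CPM there, against 61.2 to 74.2 in WT. With 8q loss DERL1 was the 1 member called, where 2.03% of all genes were called, and 0 of the 33 members off 8q were called by edgeR or by DESeq2, with 1 of them, ATF6, and 11.7% of genes off 8q at an unadjusted p under 0.05. ATF6 had 174 and 152 CPM in 8q-loss clone 1 and 134 and 120 in clone 2, so clone 1 lay above all WT libraries and clone 2 overlapped them, at 0.27 (SE 0.108, adjusted p = 0.323). Without clone 2 it passed at 0.43 (adjusted p = 0.0324), in a fit that called 4.96% of all genes, and without clone 1 it was at 0.073 (adjusted p = 0.762). HERPUD1 was at 0.26 (adjusted p = 0.423). The median over the members off 8q was 0.056, against 0.012 over all genes off 8q, and it was 0.09 in clone 1 and -0.004 in clone 2. It ranged from -0.009 to 0.089 when 1 library or clone was left out, and the 7p-loss median from 0.026 to 0.081. ERN1, which rose with 1q loss, had 14.1, 17 and 20.5 CPM as the lowest, median and highest of the 7p-loss libraries.

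In the AGS 1q-loss clones the members off 1q that were called had all fallen. 4 of 31 fell and 0 rose, where 2.88% of genes off 1q were called lower and 3.46% higher, and 10 of the 31 members had an unadjusted p under 0.05, as did 24.1% of genes off 1q. ERN1 had 31.5 CPM in WT, 37.4 and 35.5 in TK+, and 16.3, 19.2, 15.9, 16.9 and 29.7 in clones 1, 4, 6, 7 and 11, a change of -0.83 (SE 0.209, adjusted p = 0.0445). DNAJB9 had 42.4 CPM in WT, 47.2 and 33 in TK+, and 17, 18.3, 20.1, 21.8 and 26.6 in the same clones, a change of -0.97 (SE 0.173, adjusted p = 0.0169). SEL1L had 282 CPM in WT, 225 and 224 in TK+, and 124, 155, 111, 112 and 185 in the same clones, a change of -0.82 (SE 0.182, adjusted p = 0.0304). For all 3 genes clone 11, the clone made by ReDACT-CO, was the highest of the loss libraries, and the groups did not overlap. ASNS, which makes asparagine and is an ATF4 target, had 30 CPM in WT, 29.7 and 38.7 in TK+, and 13, 15.4, 10.4, 9.63 and 20.5 in the same clones, a change of -1.25 (SE 0.238, adjusted p = 0.0196). HSPA5 was at -0.57 (adjusted p = 0.101), EDEM1 at -0.52 (adjusted p = 0.0802), XBP1 at -0.34 and HERPUD1 at -0.49, not called.

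These AGS calls rested on few libraries. By chi-square per degree of freedom over genes, loss clones 6 and 7 differed by 6.5 and clones 1 and 4 by 17.57. The other pairs of AGS loss clones differed by 33.89 to 77.08. Repeat libraries of 1 clone in the other lines differed by 3.46 to 60.28. The fits counted the AGS clones as independent, and whether they were was not tested. ERN1 kept its call in 5 of 12 alternatives, SEL1L in 6, ASNS in 9 and DNAJB9 in 10. ERN1 lost it in each fit that left out 1 library other than clone 11 (adjusted p of up to 0.155), and SEL1L in each that left out a control or clone 1, 6 or 7 (adjusted p of up to 0.135). ASNS and DNAJB9 lost it only in fits without 1 of the controls. The TK+ clone 1 library had the highest control levels of HSPA5 (2318 CPM), HSP90B1 (2672 CPM) and CRELD2 (97.5 CPM), and without it 2 members and 1.58% of all genes were called, ATF6 and EDEM3 included in that count, and the median off 1q was -0.09 in place of -0.23. Without the WT library 2 members and 1.07% of all genes were called. Without TK+ clone 2 the counts were 3 members and 0.626% of all genes, with a median of -0.34. In loss clones 1 and 4 the genes of 11q, which hold HYOU1 and SYVN1, were shifted by 0.39 and 0.54. TRIB3 had 8.16 and 7.36 CPM in those clones and 0.645 to 2.6 in the other AGS libraries. The 6 gastric markers summed to 2406 to 2915 CPM in the loss clones, 1751 to 2420 in TK+ and 1988 in WT. Mitochondrial genes held 5.309% to 9.149% of counts in the loss clones and 5.176% to 6.416% in the controls. The part of these features in the members' values was not tested.

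**Figure D4:**
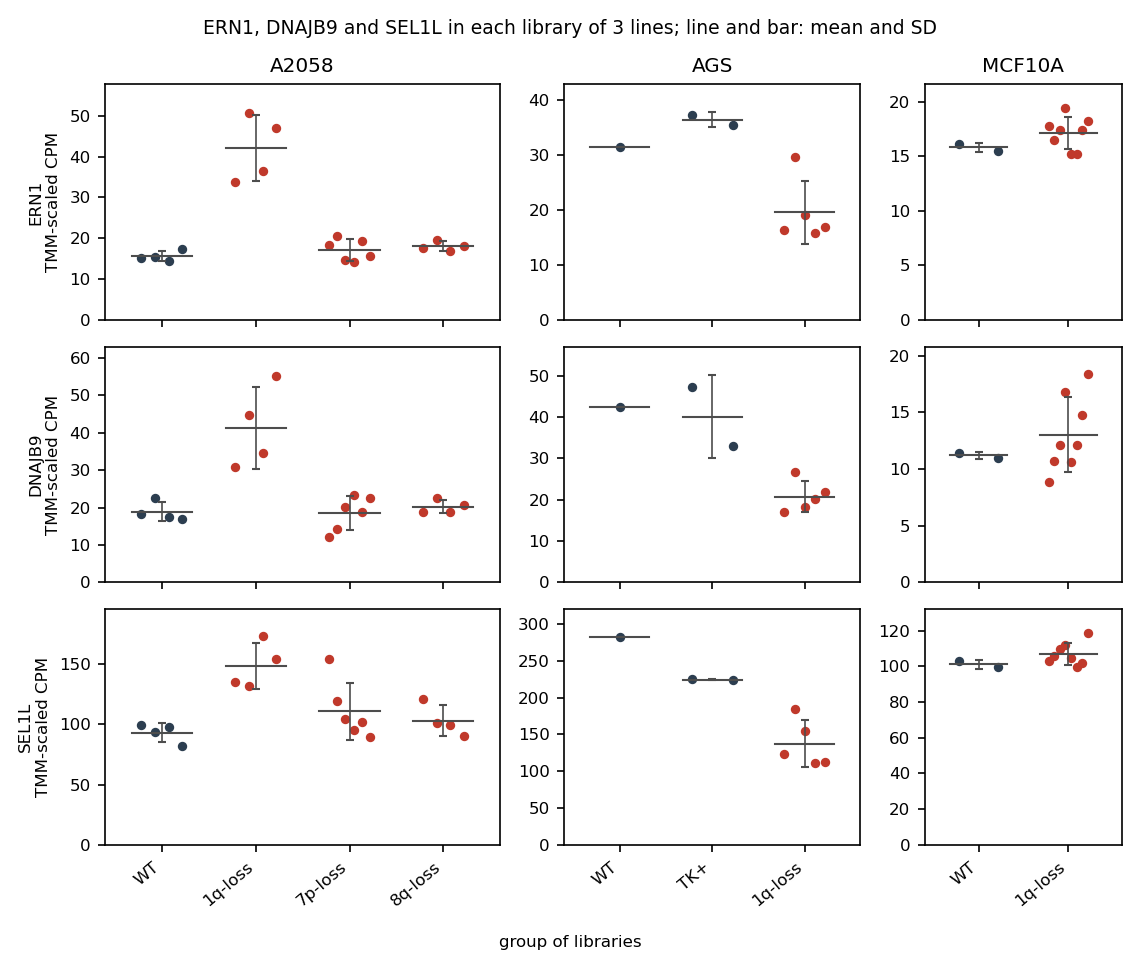
TMM-scaled CPM (y axis) of ERN1, DNAJB9 and SEL1L in each library of A2058, AGS and MCF10A by group (x axis), with loss libraries in red, controls in dark blue, and the group mean and SD as a line and bar. In A2058 the 1q-loss points lie above all WT points for each gene, and in AGS the 1q-loss points lie below all controls.

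ERN1, DNAJB9 and SEL1L rose in A2058, fell in AGS and were not called in MCF10A. The difference between lines was fitted for all genes in the model over these 3 lines. For genes named because of their calls in 2 of the lines it gives the size of the difference and is no independent evidence of it. Between A2058 and AGS 16 of 34 members differed (23.3% of all genes), all with the higher change in A2058, among them ERN1 by 2.23, DNAJB9 by 2.08, ASNS by 1.84, SEL1L by 1.47, XBP1 by 0.99 and HSPA5 by 0.97. Between A2058 and MCF10A 9 of 34 differed (15.1% of all genes), with ERN1 at 1.31, XBP1 at 0.94, DNAJB9 at 0.91, PDIA4 at 0.75 and SEL1L at 0.59. Between MCF10A and AGS 6 of 34 differed (4.13% of all genes), and DNAJB9, ERN1, SEL1L and EDEM1 had the higher change in MCF10A by 1.17, 0.92, 0.88 and 0.67. The 3 differences share libraries and are not independent.

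In A2780, 3 members off 1q rose in the 1q-loss clones, the chaperone DNAJB9 and, from integrated stress response output, PPP1R15A and ASNS. DNAJB9 had 4.7 and 4.39 CPM in WT, 5.33 and 3.94 in TK+, and 6.57, 7.26 and 8.13 as the lowest, median and highest of the 6 1q-loss libraries, without overlap. The change was 0.67 (SE 0.116, adjusted p = 0.00458) and was called in all 19 alternatives. PPP1R15A had 11.1 and 12.9 CPM in WT, 12.5 and 9.67 in TK+, and 13.9, 16.9 and 22.7 in the loss libraries, a change of 0.62 (SE 0.141, adjusted p = 0.0174). ASNS had 37.5 and 39.1 CPM in WT, 50.3 and 43 in TK+, and 50.9, 56.1 and 67.2 in the loss libraries, a change of 0.41 (SE 0.1, adjusted p = 0.0233). PPP1R15A kept its call in 16 of 19 alternatives and ASNS in 13. Off 1q, 6.08% of all genes were called higher and 3.96% lower, and 48.7% of 1q genes were called lower. HSPA5 had 959 and 981 CPM in WT, 839 and 959 in TK+, and 912, 974 and 1038 in the loss libraries, so its groups overlapped, and it was not called. The ovarian marker sum was 39.8 to 40.3 CPM in WT, 4.32 to 5.09 in TK+, 41.5 to 43.6 in loss clone 2, 7.86 to 9.1 in clone 5 and 4.39 to 5.37 in clone 6, and its part in these values was not tested.

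The TK+ integrant alone was compared with WT in A2780. 0 of 34 members were called by edgeR's quasi-likelihood test or by DESeq2, where 11.2% of all genes were called, and 8 members had an unadjusted p under 0.05, as did 21.6% of all genes. ATF6B was at 0.28 (adjusted p = 0.0505) and TRIB3 at 0.41 (adjusted p = 0.0555), and the median over members was -0.018. With the replicate number as a block 4 members and 2288 of 14888 genes were called, and without the filter 1 member and 2026 of 26650 genes. Without TK+ replicate 1, 6 of 34 members and 21.1% of all genes were called, and without TK+ replicate 2, 5 members and 19% of all genes. These WT libraries also served in the A2780 1q-loss comparison.

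In MCF10A 1q-loss clones without hRas, 0 of 31 members off 1q were called by edgeR or by DESeq2, and 1, XBP1, had an unadjusted p under 0.05, as did 9.68% of genes off 1q. XBP1 had 84.7 and 91.3 CPM in WT and 65.6 to 88.2 in the loss libraries, a value of -0.27 (SE 0.107, adjusted p = 0.311). ATF4 was at -0.20 (adjusted p = 0.466). 15 of the 31 members were above 0 and 16 below, where 52.6% of genes off 1q were above 0. With hRas, 24 of 31 were above 0 and 7 below, where 54.6% of genes off 1q were above 0. By clone, 19, 18, 18 and 24 of the 31 were above 0 in hRas clones 1, 2, 3 and 4. With hRas 0 members were called by edgeR or by DESeq2, and 3 had an unadjusted p under 0.05, as did 12.9% of genes off 1q. These 3 were EDEM1 at 0.38 (adjusted p = 0.332), HERPUD1 at 0.82 (adjusted p = 0.34) and CANX at -0.19 (adjusted p = 0.317).

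Within the hRas 1q-loss group, clone 4 held the highest values of several stress genes. DDIT3 had 1.71 and 1.25 CPM in hRas WT, and 5.18 and 3.58 in clone 4, a clone value of 1.5. PPP1R15A had 16.8 and 16.8 CPM in hRas WT and 50.6 and 55.7 in clone 4, a clone value of 1.66. CHAC1, an enzyme that degrades glutathione, had 1.43 and 1.25 CPM in hRas WT and 8.03 and 9.26 in clone 4, a clone value of 2.61. TRIB3 did not share this pattern, with 66.1 and 66.7 CPM in hRas WT and 66.8 and 61.7 in clone 4. HERPUD1, a degradation factor, had 28.2 and 30.3 CPM in hRas WT and 80.1 and 75.2 in clone 4, and DNAJB9 had 13.1 and 10.9 and then 29.4 and 27.6. These are values of 1 clone, chosen after they had been seen, with no test. In hRas clone 4 the genes of 19q, which hold PPP1R15A, were shifted by 0.55, and in clone 4 without hRas by 0.41. The 10 genes with most counts held 8.636% and 8.601% of the counts in hRas clone 4, against 4.876% to 6.097% in the other hRas 1q-loss libraries. The labels do not say whether clones of the same number with and without hRas are the same clone. In hRas clone 2 the basal marker TP63 had 0.513 and 0.634 CPM against 39.1 to 76.4 in the other 18 MCF10A libraries, and the 6 basal markers summed to 1616 to 1646 CPM against 4550 to 8335. The part of these features in the members' values was not tested.

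**Figure D5:**
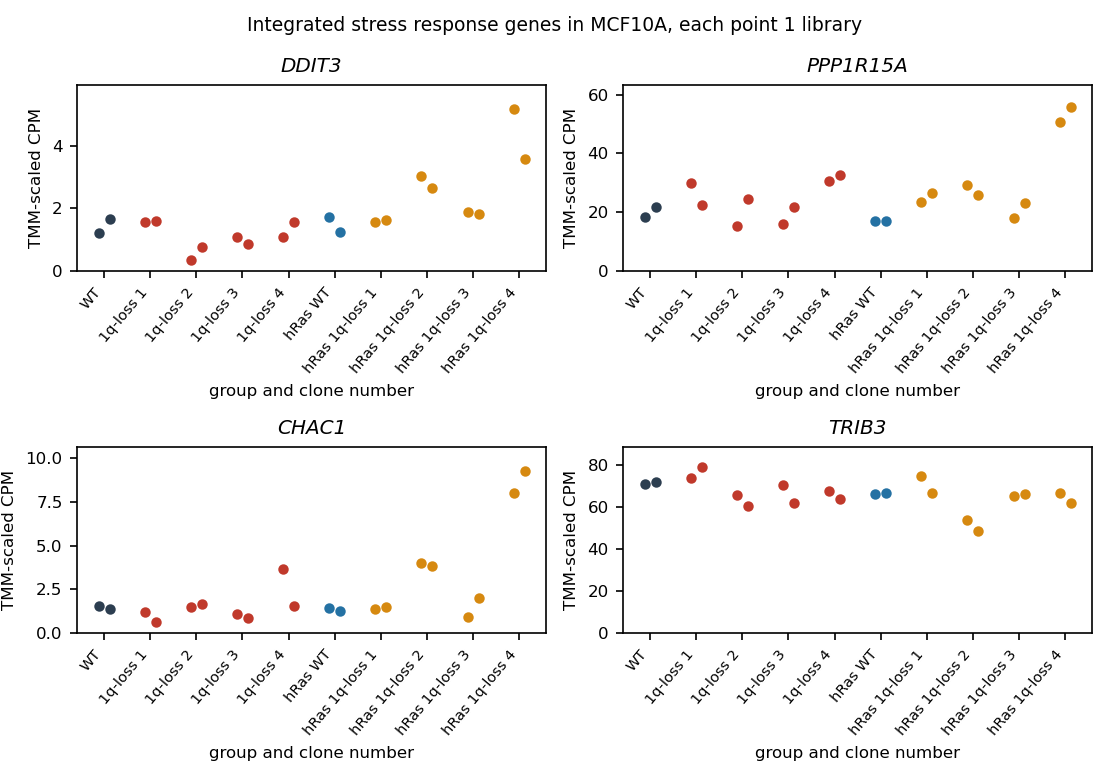
TMM-scaled CPM (y axis) of DDIT3, PPP1R15A, CHAC1 and TRIB3 in each MCF10A library, by group and clone (x axis), each point being 1 library. In hRas 1q-loss clone 4 the points of DDIT3, PPP1R15A and CHAC1 lie above those of hRas WT, and the points of TRIB3 lie at 66.8 and 61.7 CPM, beside 66.1 and 66.7 in hRas WT.

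In cells that keep 1q, hRas WT was compared with WT to show the effect of hRASV12. ATF4 fell, with 276 and 256 CPM in WT and 212 and 191 in hRas WT, a change of -0.40 (SE 0.079, adjusted p = 0.0247). It was the 1 member of 33 called, where 1.62% of all genes were called and 0.915% were called lower, and the call was lost in each fit that left out 1 of the 4 libraries (adjusted p = 0.0835 to 0.343). CALR was at 0.19 (adjusted p = 0.279). In the 1q-loss clones 27 of 33 members were higher with hRas and 6 lower, with a median of 0.20, against 0.008 over all genes, of which 51.8% were higher. Set against the clone of the same number without hRas, the median over members was 0.041 in clone 1, 0.13 in clone 2, 0.038 in clone 3 and 0.285 in clone 4. 0 of these were called by edgeR's quasi-likelihood test (1.2% of all genes were called), and 10 had an unadjusted p under 0.05, as did 18.1% of all genes. DESeq2 called 7 members and 798 of 16884 genes, and with clones summed 0 members and 0 of 16122 genes were called. With the clone number as a block 11 members, all higher, and 2160 of 14332 genes were called, PDIA4 (0.22, adjusted p = 0.00455) and DDIT3 (1.27, adjusted p = 0.00981) among them. That fit counts both libraries of a clone, and with clones summed and the same block 0 members and 4 of 16122 genes were called. Without the block PDIA4 was at 0.22 (SE 0.054, adjusted p = 0.051), with 250 to 302 CPM without and 297 to 372 with hRas. DDIT3 was at 1.29 (SE 0.316, adjusted p = 0.0535), with 0.349 to 1.6 CPM without and 1.56 to 5.18 with hRas. For the interaction of hRas with 1q loss, 0 of 33 members and 0% of 16492 genes were called by edgeR, 0 members and 366 genes had an unadjusted p under 0.05, and DESeq2 called 1 gene and 0 members. The smallest p among members were those of ATF4 at 0.33 and DDIT3 at 1.23 (both adjusted p = 0.999).

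HCT116 gave no call among the members. 0 of 33 were called by edgeR or by DESeq2 and 0 had an unadjusted p under 0.05, where 0.14% of all genes were called and 5.45% had such a p, and the median off 8q was 0.11 against 0.027 over all genes off 8q. It ranged from -0.077 to 0.24 when 1 library or clone was left out, and was -0.072 in clone 1 and 0.24 in clone 2. The WT libraries differed from each other, with CANX at 166 and 307 CPM and HSP90B1 at 96.4 and 158. The clones differed as well, and HSPA5 had 630 and 543 CPM in clone 2. CHAC1 was at -0.80 (adjusted p = 0.947), EDEM2 at -0.53 (adjusted p = 0.976) and EIF2AK3 at 1.06, not called.

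Beyond the 34 members, 53 further genes of the pathway were listed, covering processing proteases, translocation, folding, lipid and amino acid metabolism. In A2058 1q-loss 29 of 52 tested rose and 7 fell, where 49.6% of all genes were called, with a median of 0.33. STC2, a secreted hormone-like protein, rose by 5.17, from a mean of 6.16 CPM to 222, and the transcription factor CEBPB by 1.45. ERO1B, an oxidase on 1q, fell by 2.15 and NUPR1 by 2.08. MBTPS1, the site-1 protease that cuts ATF6, rose by 0.79, from a mean of 214 CPM to 370, and was singled out after its value was seen. In AGS 1 of 50 rose and 3 fell, where 7.55% of all genes were called, with a median of -0.22. ATF3, a stress factor on 1q, rose by 0.83 although its arm was lost, while CTH fell by 1.17 and CREB3L2 by 0.69. In A2780 11 of 52 rose and 1 fell, where 11.8% of all genes were called, with a median of 0.08, and ATF3 rose there by 1.78, from a mean of 0.415 CPM to 1.44, with SPCS3 at 1.19 and ATF5 at -0.85 also called. ERO1B, listed in the A2780 tables as ERO1LB, rose there by 1.14, a value named because of its fall in A2058. In MCF10A 0 of 53 were called without hRas, where 2.04% of all genes were, and 0 of 53 with hRas, where 0.214% were. In HCT116 0 of 50 were called (0.14% of all genes). A2058 7p loss gave 1 higher and 1 lower of 52 (0.908% of all genes called) and A2058 8q loss 0 higher and 1 lower of 52 (2.03%). A2780 TK+ gave 3 higher and 1 lower of 51 against WT, below the 11.2% called of all genes, and MCF10A hRas WT 0 higher and 2 lower of 53 (1.62%).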

How the data were processed

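Poly-A selected RNA was sequenced in 62 libraries, and the authors deposited 1 table of raw, unnormalised read counts per gene for each. Per the submitters' processing notes, HISAT2 2.0.5, featureCounts 1.5.0-p3 and hg38 were used. Whether counting used the strand is not given in the sources used here. The A2780 tables carry GRCh37 positions, and the others GRCh38.

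Low counts were removed by edgeR 4.0.16 (filterByExpr, count of at least 10 and total of at least 15). After TMM scaling, all remaining genes were tested across the libraries with edgeR's quasi-likelihood test, two-sided, with Benjamini-Hochberg adjustment, in R 4.3.3 with limma 3.58.1. Each fit held only the libraries compared. Controls were the libraries of the same line that keep the gain: WT, or WT with TK+ in AGS and A2780. The SE was derived from the fold change and its F statistic. Clone values are differences of mean log2 CPM with a prior count of 2. The pipeline was tested on simulated data. DESeq2 1.42.0, RLE size factors, no filter, TMM on genes outside the lost arm, clones summed, the replicate number as a block and fits without each library and clone were run as alternatives. MCF10A clones of the same number with and without hRas deviated together from their group means (r = 0.291 to 0.673 over 14332 genes, each highest with its own number), so the clone number was taken to pair them. This check, and the fit with clones summed and the clone as a block, were added after the data had been seen.

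The members, the further pathway genes, the groups by role and the marker lists were chosen with earlier results of these data known. In each comparison the members on the lost arm were named, with ATF6B in the loss comparisons, then called members (up to the 5 largest changes each way) or, with fewer than 3 called, the 2 with the smallest p. Any other member was named after its values were seen. Up to 2 further pathway genes each way with a mean of at least 1 CPM were named, and any other after its values were seen. Counting limits precision most for members of few CPM. No library was left out, and no library pair of a group agreed within sampling noise.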

Additional observations from a re-analysis of the deposited data

Results flagged for a closer look

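The change with 1q loss differed between lines for the members listed here, by edgeR's quasi-likelihood test of the difference with Benjamini-Hochberg adjustment. Repeat libraries of a clone entered that test as separate units. The change in A2058 exceeded that in AGS, on the log2 scale, by 2.23 for ERN1, 2.08 for DNAJB9, 1.94 for EDEM3, 1.84 for ASNS, 1.47 for SEL1L, 0.99 for XBP1, 0.97 for ATF6, 0.97 for HSPA5, 0.86 for EDEM1, 0.80 for DNAJC3, 0.78 for SYVN1, 0.55 for HYOU1, 0.43 for DNAJB11, 0.43 for PDIA3, 0.41 for DERL2 and 0.35 for DERL1. It exceeded that in MCF10A by 1.31 for ERN1, 0.94 for XBP1, 0.92 for EDEM3, 0.91 for DNAJB9, 0.75 for PDIA4, 0.66 for SYVN1, 0.59 for SEL1L, 0.52 for HYOU1 and 0.40 for ATF6. The change in MCF10A exceeded that in AGS by 1.17 for DNAJB9, 1.02 for EDEM3, 0.92 for ERN1, 0.88 for SEL1L, 0.67 for EDEM1 and 0.57 for ATF6.

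Of 295 sets of 4 to 8 library values (1 member in 1 group, mean of at least 1 CPM), 17 had a library far from the others by Dixon's criterion, and chance gives about 1 in 20. In A2058, ASNS was lowest at 0.885 CPM in 1q-loss clone 2 replicate 1, CANX lowest at 1336 in 1q-loss clone 1 replicate 1, CALR highest at 1067 in 8q-loss clone 1 replicate 2, DERL1 lowest at 53.4 in 8q-loss clone 2 replicate 1, CRELD2 highest at 83.6 in WT replicate 4, EDEM1 highest at 185 in 7p-loss clone 1 replicate 1 and PDIA4 lowest at 384 in 7p-loss clone 1 replicate 2. In AGS clone 4, CRELD2 at 69.8 CPM, PDIA4 at 963 and SYVN1 at 77.7 were the highest of the loss clones, and in clone 11 ERN1 at 29.7 and PPP1R15A at 589 were. In HCT116 clone 1, ASNS was highest at 3.7 CPM and MANF lowest at 44.6 in replicate 2, and SDF2L1 was highest at 162 in replicate 1. In MCF10A, CHAC1 was highest at 3.68 CPM in 1q-loss clone 4 replicate 1, and HSP90B1 at 1101 in hRas 1q-loss clone 4 replicate 1.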

How the results depend on the processing

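ATF6 and EDEM3 kept their calls in AGS and A2780 under each alternative run there, and so did EDEM3 in A2058. In MCF10A ATF6 lost its call with RLE size factors (-0.42, adjusted p = 0.0518), with clones summed (-0.43, adjusted p = 0.0641) and with the replicate number as a block (-0.43, adjusted p = 0.0604), each of which left 1 called member. DESeq2 called 1 member, ATF6, in hRas 1q-loss (-0.37, with 361 of 14854 genes), 2 in A2058 7p-loss (448 of 18618 genes) and 7 in hRas against no hRas among 1q-loss clones, where 11 were called with the clone as a block and 0 with clones summed as well. In that comparison the calls over all genes went from 172 to 2160 with the clone block, 798 with DESeq2, 0 with clones summed and 4 with both. In A2780, 3 members in place of 5 were called with clones summed (725 of 15083 genes in place of 1780 of 15044), and in A2780 TK+ 1 was called without the filter (2026 of 26650 genes). Libraries of the same replicate number did not all deviate together, so these numbers were not taken to pair them. With the replicate number as a block, DERL1 in A2058 8q-loss was -0.63 (adjusted p = 0.0836), which left 0 members called, and 4 of 34 members were called in A2780 TK+, with 2288 of 14888 genes. In A2058 1q-loss the same block gave 22 called members in place of 19, and 6315 of 15387 genes in place of 7638. Off 1q, 17 of these members were higher and 4 lower, in place of 16 and 2.

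Leaving out 1 library or clone at a time gave the following counts of called members, with the share of all genes called over the same fits. There were 19 to 21 in A2058 1q-loss (41.2% to 46.9%), 0 to 2 in 7p-loss (0.456% to 5.96%), 0 to 2 in 8q-loss (0.776% to 4.96%), 2 to 9 in AGS (0.626% to 11.9%) and 3 to 6 in A2780 (6.39% to 12.1%). There were 0 to 2 in MCF10A (0.0966% to 2.94%), 0 to 6 in A2780 TK+ (7.06% to 21.1%), 0 to 0 in hRas WT (0% to 1.12%) and 0 to 7 in hRas among 1q-loss clones (0.0958% to 10.8%). The median off 1q ranged from 0.288 to 0.363 in A2058, from -0.343 to -0.092 in AGS and from 0.021 to 0.093 in A2780. In MCF10A it ranged from -0.006 to 0.026, so its sign is not settled, and with hRas from 0.068 to 0.13. ATF6 ranged from -0.057 to 0.002 in A2058 and from -0.47 to -0.39 in MCF10A, EDEM3 from -0.51 to -0.38 in MCF10A and DERL1 from -0.62 to -0.49 in A2058 8q-loss. ATF6B in A2780 ranged from -0.082 to 0.036, so its sign is not settled. Where a fit left 1 library in a group, that library was assumed to vary like the other group. The cause of these changes was not tested.

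Calls in A2058 rest on 2 or 3 clones per arm, in AGS on 3 controls, and in HCT116 and MCF10A on 2 WT libraries. Members of a few CPM or less, such as ASNS in A2058, DDIT3 and CHAC1 in MCF10A, and DERL3, carry the most counting error. The fits do not separate arm loss from what else differs between clones, and protein levels and XBP1 splicing were not measured.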
